A study of Homo sapiens with 9 samples.

Results

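Hep3B cells, a human hepatocellular carcinoma line, were kept for 24 hours at 1% O2 with the compound 32-134D or with its vehicle, and their RNA was sequenced. The comparison described here sets the 3 libraries labelled 32-134D at 1% O2 against the 3 labelled vehicle at 1% O2, chosen by their labels alone, which makes 6 of the 9 libraries of the study. The other 3 libraries, vehicle at 20% O2, enter the fit and are quoted as a reference level. Of the 60683 genes listed, 22672 had enough counts to be tested. Cells of 1 line were grown in multiwell plates, and the labels call the replicates of a group biological without giving a dose of 32-134D. 32-134D at 20% O2 is not analysed here, so an effect of the compound that needs hypoxia and one that does not cannot be told apart.

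Hypoxia-inducible factors (HIFs) are pairs of an oxygen-sensitive α subunit, HIF-1α (gene HIF1A) or HIF-2α (gene EPAS1), and a stable β subunit (gene ARNT). When oxygen is plentiful, prolyl hydroxylases tag the α subunit and the VHL protein sends it to the proteasome, and when oxygen is scarce the pair builds up and turns on genes for glucose use, pH control, vessel growth and red blood cell formation. 32-134D was developed as an inhibitor of both factors, and the comparison asks which transcripts of hypoxic liver cancer cells differ when it is present.

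HIF pairs recognise a short DNA core, ACGTG or GCGTG. The aryl hydrocarbon receptor (AhR), which also pairs with ARNT and controls CYP1A1, recognises GCGTG. The 250 bases before the start of 4 genes are shown, 5′ to 3′ on the strand of the gene, because CA9, BNIP3 and P4HA1 are known HIF targets that fell and CYP1A1 had the largest increase. CA9, encoding a carbonic anhydrase, lies on the plus strand, with the bases shown at chr9:35673678-35673927. BNIP3, encoding a mitophagy receptor, lies on the minus strand (chr10:131981924-131982173), as do P4HA1, encoding a collagen prolyl hydroxylase (chr10:73096867-73097116), and CYP1A1, encoding a cytochrome P450 (chr15:74725529-74725778). The sequences are from RefSeq, build GRCh38.p14, and capitals mark ACGTG or GCGTG read on either strand, so that CACGT and CACGC are the same cores on the opposite strand.
CA9: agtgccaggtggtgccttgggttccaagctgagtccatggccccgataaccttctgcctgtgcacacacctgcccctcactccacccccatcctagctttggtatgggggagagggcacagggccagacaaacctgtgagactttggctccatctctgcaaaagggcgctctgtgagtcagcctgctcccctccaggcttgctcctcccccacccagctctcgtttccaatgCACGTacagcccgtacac
BNIP3: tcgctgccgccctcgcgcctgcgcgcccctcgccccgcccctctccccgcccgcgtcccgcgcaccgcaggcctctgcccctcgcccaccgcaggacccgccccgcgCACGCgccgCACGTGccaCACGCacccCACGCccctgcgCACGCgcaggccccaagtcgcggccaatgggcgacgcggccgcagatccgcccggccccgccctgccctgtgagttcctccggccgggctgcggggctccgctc
P4HA1: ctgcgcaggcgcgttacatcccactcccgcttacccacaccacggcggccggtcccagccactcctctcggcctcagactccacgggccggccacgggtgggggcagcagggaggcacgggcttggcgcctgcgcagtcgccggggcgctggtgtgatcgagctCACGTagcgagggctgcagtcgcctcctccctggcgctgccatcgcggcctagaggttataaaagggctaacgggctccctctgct
CYP1A1: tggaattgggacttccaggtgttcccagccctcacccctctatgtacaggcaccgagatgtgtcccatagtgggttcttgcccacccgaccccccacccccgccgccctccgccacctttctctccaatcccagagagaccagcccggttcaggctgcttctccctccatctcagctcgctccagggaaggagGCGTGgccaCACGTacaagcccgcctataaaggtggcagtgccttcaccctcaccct
The CA9 window held a core 18 bases before the start, the P4HA1 window a core 86 bases before it, and the BNIP3 window a palindrome with a core on each strand, 134 and 133 bases before the start, among 4 further cores. In the CYP1A1 window, GCGTG lay 57 and CACGT 48 bases before the start.

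A window of this kind was found for 11745 of the 14872 protein-coding genes tested. ACGTG stood on either strand in 22.4% of these windows, in 24.4% of the 2059 windows of genes that 32-134D lowered and in 20.4% of the 1893 windows of genes that it raised. Among the 121 windows of genes lowered by over 4-fold it stood in 44, or 36.4%, while it stood in 19.7% of the 370 windows of genes raised by over 4-fold. GCGTG had no such excess, being in 43.5% of all the windows and in 34.7% of those of genes lowered by over 4-fold. Over the whole RefSeq table of 27305 promoters, ACGTG was in 18.7% and GCGTG in 31.9%. These are counts of letters in a short window, and a gene can be bound elsewhere.

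The 6 libraries held between 21044373 and 40549699 counts, and the 3 at 20% O2 between 6013980 and 31370726. All 10 liver markers examined were at 6.86 CPM or more in every one of the 6 libraries, with serum albumin (ALB) at 5948 to 10208 CPM and alpha-fetoprotein (AFP) at 86.0 to 204 CPM. Of 12 markers of endothelial, blood and fibroblast cells, 6, among them VWF, CDH5, PTPRC, CD3E and DCN, had fewer than 10 counts over the 9 libraries. The others summed to 22.0 to 25.7 CPM in vehicle and 47.8 to 52.9 CPM with 32-134D, most of it LYZ and PDGFRB, and 5 of these 6 were called raised, and their part in the results was not tested. In RNA from whole cultures, a change in the number of cells of a kind and one in RNA per cell cannot be told apart. Replicate 3 of 32-134D stood apart from replicates 1 and 2. Between replicates 1 and 2, the SD of the log2 difference over genes was 0.0995, and it was 0.385 and 0.379 between replicate 3 and each of them, against 0.127 to 0.175 between vehicle libraries at 1% O2. Counts of calls that change by over 1.5 times without that library are given both ways.

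Levels are CPM (counts scaled to a common library size) after scaling with the TMM method, which allows for differences in library composition. A gene was called lowered or raised with a Benjamini-Hochberg adjusted p (FDR) under 0.05 in edgeR's quasi-likelihood test and a fold change over 1.5, and fell and rose are used for such genes only. Values of 3 libraries are in the order of replicates 1, 2 and 3, and the error of a log2 fold change is its SE.

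32-134D lowered 3100 genes, 13.7% of those tested, and raised 3675, 16.2%. Of these, 2578 lowered and 2458 raised genes were protein-coding. Lowered by over 4-fold were 254 genes and raised by as much 997, of which 157 and 471 were protein-coding. An average normalized count of 100 or more over the 6 libraries was reached by 2266 of the lowered and 1746 of the raised genes. Many of the raised genes therefore had few counts, where large ratios are less certain. The 3 libraries of each group did not overlap for 3062 of the lowered and 3418 of the raised genes, and over all genes tested the groups did not overlap for 56.1%. The median log2 fold change over all genes was -0.01. Without replicate 3 of 32-134D, 3144 genes (14.1%) were lowered and 3711 (16.7%) raised, of which 2805 and 3288 were the same genes as before, and no gene was called in opposite directions.

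The balance between the directions depends on the scaling. Raised genes made up 54.2% of the calls with TMM, 60.0% with the RLE scaling of DESeq2 and 72.0% when libraries were scaled by total counts, which moved the median of all genes to 0.17. The exon length of a gene, taken over all its annotated exons, moved with the direction of change. With protein-coding genes split into 5 groups by exon length, in the shortest group 22.6% were lowered and 9.91% raised, and in the longest group 8.17% were lowered and 31.2% raised. The exon length of the gene behind the median counted read was 4910 to 5057 bases in the vehicle libraries and 5286 to 5399 with 32-134D. Calls were therefore also made with a smooth trend over length removed from every library. Of the genes described below as lowered, ACSL1, BAD, CYP51A1, FGA, FGB, KEAP1, RPL13A, SLC9A3R1 and XBP1 were no longer past both thresholds with that trend removed, nor when libraries were scaled by total counts. Of those described as raised, ATM (0.41), ATR (0.41), MKI67 (0.27), ONECUT2 (0.51), POLE (0.43) and POLR1A (0.58) lost the call with the trend removed, at the log2 fold changes given.

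**Figure D1:**
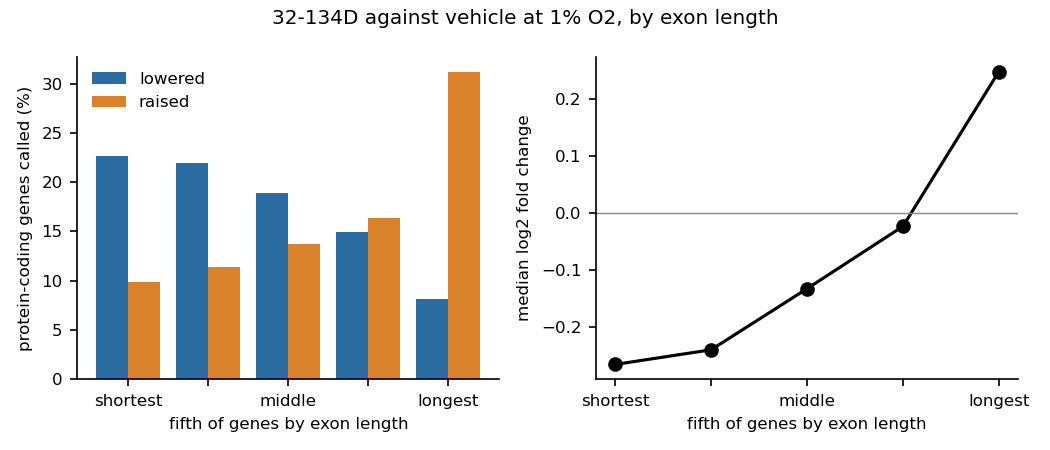
Share of protein-coding genes called lowered (blue) or raised (orange) by 32-134D at 1% O2, as bars in percent (left), and median log2 fold change of 32-134D against vehicle (right), in 5 groups of about equal size from the shortest to the longest exon length. Lowered genes go from 22.6% of the shortest group to 8.17% of the longest, and raised genes from 9.91% to 31.2%.

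The 8 largest decreases among well counted protein-coding genes were those of LGI4, NPPB, ANGPTL4, INHA, PNCK, CA9, EPO and PPP1R3G. LGI4, a secreted protein of glial cells, was at 17.7, 19.9 and 20.2 CPM in vehicle and 0.652, 0.741 and 0.0457 CPM with 32-134D, a log2 fold change of -5.19 ± 0.31 (FDR 9.78e-09). CA9, which acidifies the surroundings of hypoxic cells, was at 511, 598 and 631 CPM in vehicle and 57.2, 61.9 and 50.6 CPM with 32-134D, and fell by 10.2-fold (log2 fold change -3.36 ± 0.10, FDR 2.98e-11). The groups did not come near each other for these 2 genes, and vehicle at 20% O2 lay at 0.511 and 27.9 CPM. The inhibin subunit INHA fell by 11.4-fold and the kinase PNCK by 11.2-fold. PPP1R3G, a glycogen-targeting subunit of protein phosphatase 1, fell from 177, 179.7 and 185 CPM to 19.8, 21.9 and 12.9 CPM.

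The 8 largest increases among the genes with non-overlapping groups were those of CYP1A1, MUC5AC, RIPOR3, SCN7A, GPAM, C2orf16, CXCL1 and RUNX2. In 6 of them replicate 3 of 32-134D was over 2-fold away from the mean of replicates 1 and 2, and RIPOR3 and C2orf16 were the exceptions. RIPOR3 was at 0.0795, 0.141 and 0.380 CPM in vehicle and 8.28, 8.08 and 5.63 CPM with 32-134D (log2 fold change 5.21 ± 0.32, FDR 1.29e-08). C2orf16 rose from 0.398, 0.377 and 0.553 CPM to 13.2, 13.2 and 11.3 CPM. Vehicle at 20% O2 lay at 11.5 CPM for RIPOR3 and 15.3 CPM for C2orf16. The sodium channel SCN7A had 6.38, 6.23 and 0.686 CPM with 32-134D and at most 0.277 CPM in vehicle, and the bone transcription factor RUNX2 had 1.53, 1.41 and 11.6 CPM against at most 0.242 CPM. The mucin MUC5AC had 1 count in all in the vehicle libraries and 4, 10 and 287 counts with 32-134D, so that its ratio of 305 (95% interval from counts 54.3 to 12069.9) rests on replicate 3.

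**Figure D2:**
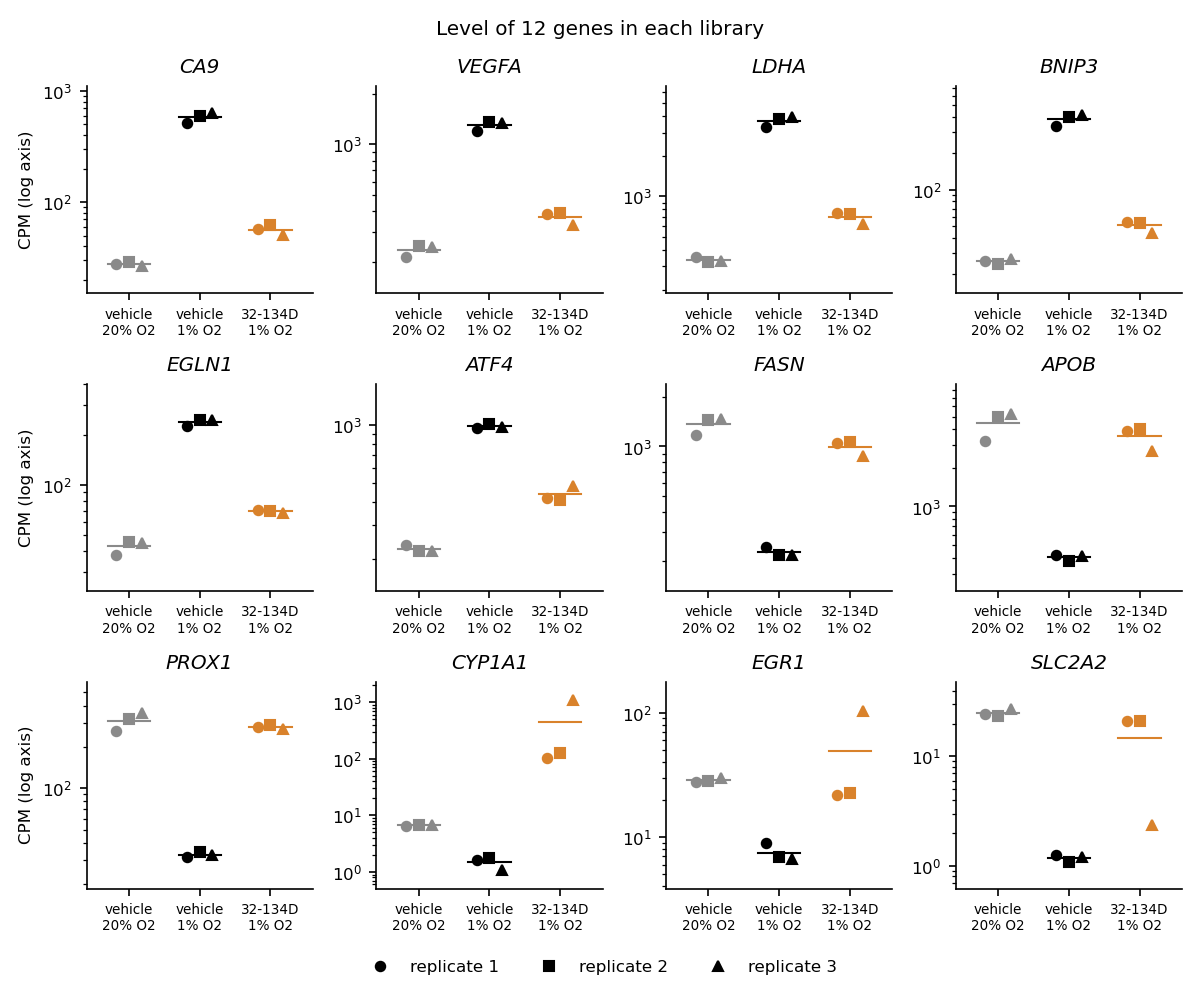
TMM-scaled level in CPM on a log axis for 12 genes in each of the 9 libraries (points, 3 per group), with the group mean as a bar. CA9, VEGFA, LDHA, BNIP3, EGLN1 and ATF4 lie lower with 32-134D than in vehicle at 1% O2, and FASN, APOB and PROX1 lie higher, in all 3 libraries, while CYP1A1, EGR1 and SLC2A2 show replicate 3 of 32-134D away from replicates 1 and 2.

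The transcripts of the factors that 32-134D targets hardly differed. HIF1A was at 183, 168 and 169 CPM in vehicle and 175, 178 and 167 CPM with 32-134D, a log2 fold change of 0.00 ± 0.07, and EPAS1 at 209, 208 and 199 CPM and 184, 191 and 207 CPM, a log2 fold change of -0.08 ± 0.08. Neither passed the test, and the groups overlapped. ARNT was lower in all 3 libraries, at 68.9, 68.4 and 60.0 CPM against 93.0, 92.6 and 91.5 CPM, with an FDR of 0.000164 but a fold change of 1.40, under the threshold. Of the 10 genes of the oxygen-sensing system, 2 fell (20.0%) and 1 rose (10.0%), against 13.7% and 16.2% of all genes. The prolyl hydroxylases EGLN1 and EGLN3, both HIF targets that feed back on HIF-α, fell, EGLN1 from 226, 245 and 243 CPM to 70.4, 69.9 and 68.0 CPM and EGLN3 from 11.2, 13.2 and 15.3 CPM to 7.86, 7.14 and 4.34 CPM. EGLN2, the prolyl hydroxylase that hypoxia is not known to induce, rose from 8.56, 7.68 and 8.43 CPM to 14.9, 14.4 and 11.3 CPM.

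Genes of glucose uptake and glycolysis fell together. Of 30 tested, 21 fell (70.0%, against 13.7% of all genes) and 4 rose, with a median log2 fold change of -1.61, and the counts were 22 and 3 without replicate 3. The regulatory enzyme PFKFB4 fell by 8.54-fold, from 265, 284 and 283 CPM to 36.0, 36.1 and 24.9 CPM, and the enolase ENO2 by 6.87-fold, from 329, 341 and 346 CPM to 51.1, 53.1 and 43.4 CPM. Lactate dehydrogenase A (LDHA), which makes lactate from pyruvate, fell from 3324, 3762 and 3938 CPM to 757, 738 and 626 CPM (log2 fold change -2.38 ± 0.09, FDR 2.75e-10). The glucose transporters SLC2A1 and SLC2A3 fell by 5.04-fold and 7.30-fold, although SLC2A3 was at no more than 4.74 CPM. None of these genes reached the level of vehicle at 20% O2 except SLC2A3, whose vehicle mean at 20% O2 was 0.791 CPM against 0.964, 0.438 and 0.274 CPM with 32-134D. The 4 genes that rose included PFKFB2, PFKM, which was not called without replicate 3, at 0.57, and the liver pyruvate kinase PKLR, with levels of 19.6, 17.4 and 4.98 CPM against 5.99, 6.79 and 8.02 CPM, where replicate 3 lay below every vehicle library.

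Of 16 genes of glycogen and gluconeogenesis, 9 fell and 2 rose, with a median of -0.79. Phosphoglucomutase PGM1, which links glycogen to glycolysis, fell from 139.9, 165 and 164 CPM to 45.9, 44.3 and 27.7 CPM, and PPP1R3C, another glycogen-targeting subunit, from 55.7, 58.2 and 59.4 CPM to 20.1, 20.6 and 11.4 CPM. The gluconeogenic genes PC (pyruvate carboxylase) and FBP1 (fructose bisphosphatase) rose, PC to 145, 137 and 204 CPM from 81.1, 97.3 and 98.7 CPM. FBP1 had 4.68, 4.54 and 1.88 CPM against 1.64, 1.79 and 1.69 CPM, with replicate 3 just above the vehicle libraries. Among 9 genes of acid-base control, CA9 and the exchanger regulator SLC9A3R1 fell, CA9 alone without replicate 3, and the bicarbonate transporters SLC4A4 and SLC4A7 rose. That is 22.2% in each direction, against 13.7% lowered and 16.2% raised of all genes. SLC4A4 had 8.80, 9.85 and 10.5 CPM in vehicle and 77.7, 73.2 and 43.0 CPM with 32-134D, and SLC4A7 had 18.4, 14.3 and 16.5 CPM and 29, 30.8 and 84.6 CPM.

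Secreted factors that act on vessels and blood fell in most cases, 12 of 19 with 3 that rose and a median of -1.44. Vascular endothelial growth factor A (VEGFA) fell by 3.50-fold, from 1204, 1349.6 and 1338 CPM to 386, 390.4 and 334 CPM (log2 fold change -1.81 ± 0.09, FDR 1.54e-09). The lipoprotein lipase inhibitor ANGPTL4 fell from 93.3, 108 and 122 CPM to 7.80, 6.87 and 7.82 CPM, a 14.4-fold decrease. Erythropoietin (EPO), the hormone of red blood cell formation, fell by 10.2-fold, from 8.11, 10.2 and 10.9 CPM to 0.794, 1.14 and 0.915 CPM. With 32-134D, EPO lay near its level in vehicle at 20% O2, which was 1.00, 0.314 and 0.608 CPM, and VEGFA lay above its own, which was 215, 249.7 and 246 CPM. The placental growth factor PGF fell to 19.8, 18.2 and 16.6 CPM from 38.7, 42.9 and 33.1 CPM, and the natriuretic peptide NPPB to 2.78, 2.49 and 1.01 CPM from 20.4, 35.5 and 44.2 CPM. Endothelin 1 (EDN1), a vessel constrictor, rose to 5.90, 6.40 and 1.60 CPM from 0.477, 0.754 and 0.899 CPM, and FGF2 rose to 4.2, 3.80 and 7.73 CPM from 2.39, 2.17 and 1.9 CPM. The chemokine CXCL12 was called raised, with 31.6, 32.3 and 85.1 CPM against 28.9, 26.8 and 26.4 CPM, but without replicate 3 the log2 value fell under the threshold, to 0.22. The stem cell factor KITLG was not called, at 6.95, 5.86 and 5.72 CPM against 6.33, 4.81 and 5.22 CPM. The metastasis-linked gene NDRG1, a common marker of hypoxia, fell from 789, 879.7 and 959.9 CPM to 122, 126 and 79.5 CPM (log2 fold change -3.0 ± 0.14, FDR 1.72e-09).

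**Figure D3:**
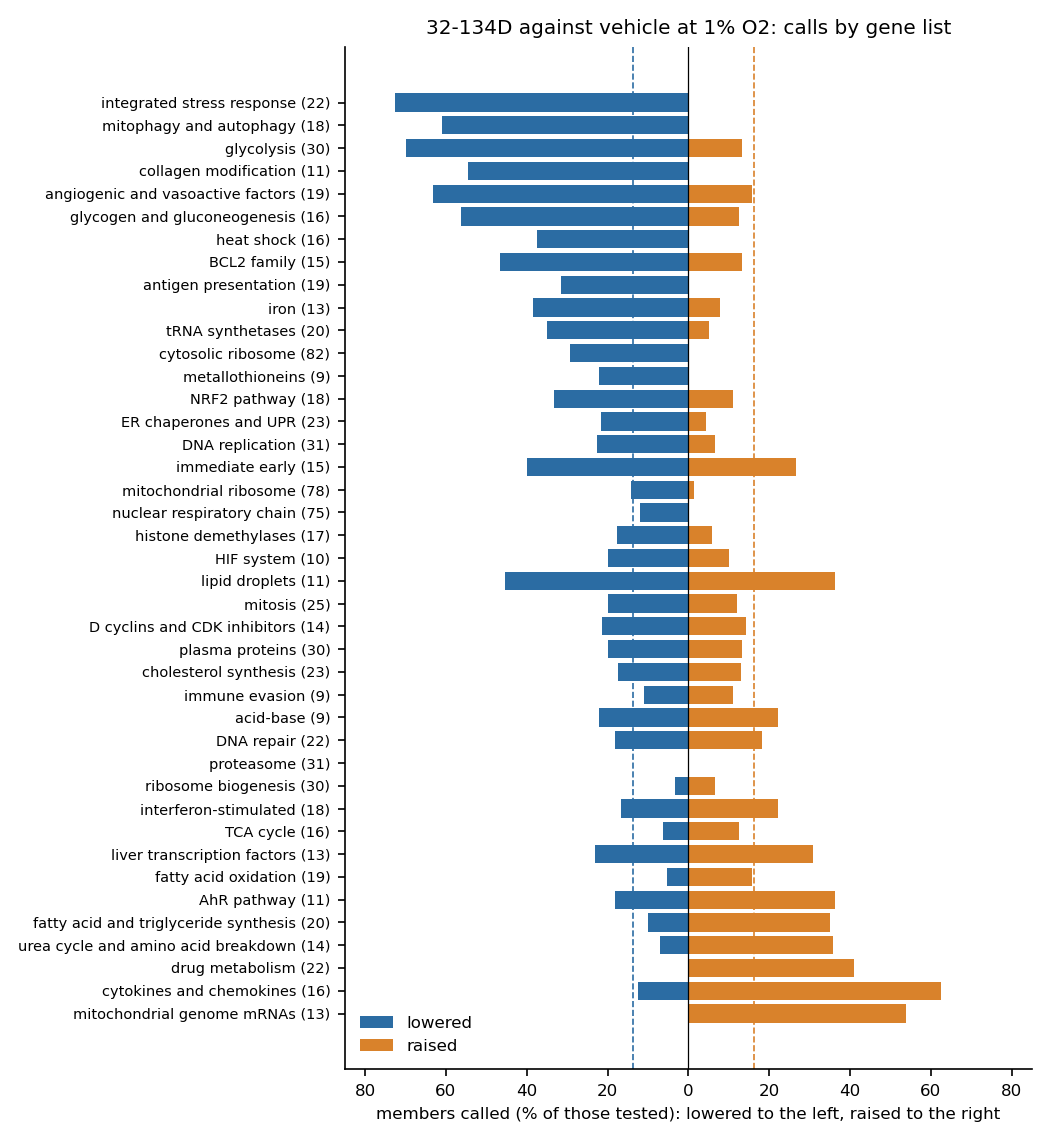
Percent of the tested members of each gene list called lowered (blue, to the left) or raised (orange, to the right) by 32-134D at 1% O2, with the percent over all genes tested, 13.7% and 16.2%, as dashed lines and the number of members tested beside each name. Stress response, glycolysis, angiogenic factors and mitophagy reach furthest to the left, with 72.7%, 70.0%, 63.2% and 61.1%.

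Mitochondrial genes split by class. Of 18 genes of mitophagy and autophagy, 11 fell and none rose (median -0.69). The mitophagy receptors BNIP3 and BNIP3L, classic HIF targets, fell from 338, 397 and 417 CPM to 54.6, 53.3 and 44.3 CPM and from 183, 194 and 208 CPM to 34.1, 37.4 and 28.8 CPM, and the autophagosome protein GABARAPL1 fell by 2.84-fold. Of 13 mRNAs of the mitochondrial genome, 7 rose and none fell, with a median of 0.71. MT-ND1, a complex I subunit, rose from 584, 541 and 537 CPM to 1660.3, 1489 and 1294 CPM, and MT-CO3, a cytochrome oxidase subunit, from 946, 859.6 and 918 CPM to 2699, 2527 and 2326 CPM. The mitochondrial ribosomal RNAs, looked at after the values were seen, went the other way, from 2.27% to 2.63% of all counts in vehicle to 1.02% to 1.18% with 32-134D. MT-RNR1 fell by 2.40-fold and MT-RNR2 by 2.56-fold. How the libraries were depleted of ribosomal RNA is not given in the sources used here, and its part in that share was not tested.

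The nuclear genes of the respiratory chain moved less. Of 75 tested, 9 fell (12%, near the 13.7% of all genes) and none rose, with a median of -0.34. Without replicate 3, 5 fell and 1 rose. The complex I subunit NDUFC1 fell from 42.5, 47.3 and 46.6 CPM to 23.9, 23.1 and 21.7 CPM. Of 78 mitochondrial ribosomal protein genes, 11 fell (14.1%, also near the share of all genes) and 1, MRPS28, rose. MRPL44 fell from 91.0, 106 and 93.1 CPM to 53.7, 49.0 and 50.0 CPM and MRPL18 from 148, 172 and 152 CPM to 94.4, 88.8 and 83.4 CPM. With the length trend removed, 5 respiratory chain and 3 ribosomal protein genes were lowered. Of 16 tricarboxylic acid cycle genes, IDH2 fell (6.25%) and OGDH and SUCLG2 rose (12.5%, against 16.2% of all genes).

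Genes of the integrated stress response, the program that ATF4 drives when amino acids or protein folding fail, fell in most cases. Of 22 tested, 16 fell (72.7%, and 13 with the length trend removed) and none rose, with a median log2 fold change of -1.09, and 19 fell without replicate 3. ATF4 itself fell from 974, 1019 and 984 CPM to 415, 408 and 484 CPM (log2 fold change -1.19 ± 0.08, FDR 2.42e-08). DDIT4, an mTORC1 brake that HIF and ATF4 both activate, fell from 902, 913 and 957 CPM to 174, 173 and 272 CPM, STC2 (stanniocalcin 2) from 391, 398 and 361 CPM to 84.6, 86.1 and 153 CPM, and PPP1R15A, which reverses the block on translation, from 357, 400.4 and 395 CPM to 140.1, 141 and 147 CPM. For ATF4, DDIT4 and STC2, replicate 3 lay above replicates 1 and 2 and below every vehicle library. Over the list, replicate 3 had a median log2 change against vehicle of -0.70, and replicates 1 and 2 had -1.16 and -1.16.

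Other genes of protein synthesis and folding fell in part. Of 20 cytosolic aminoacyl-tRNA synthetases, 7 fell and 1 rose, and 3 fell and 2 rose with the length trend removed. TARS1, GARS1 and CARS1 fell, GARS1 from 933, 910.2 and 890.3 CPM to 419.6, 413 and 613 CPM, and VARS1 rose, though not without replicate 3. Of 23 genes of the endoplasmic reticulum and unfolded protein response, 5 fell (21.7%, against 13.7% of all genes) and 1 rose (4.35%, against 16.2%). The chaperone partner DNAJB9 fell from 98.3, 104 and 91.7 CPM to 31.9, 34.6 and 33.0 CPM, the oxidase ERO1A from 406, 417 and 441 CPM to 143, 146 and 186 CPM, and the transcription factor XBP1 from 326, 308 and 309 CPM to 204, 192 and 185 CPM, while SEL1L, a part of the degradation complex, rose. Of 16 heat shock genes, 6 fell and none rose. DNAJB1 fell from 1022, 1458 and 1208 CPM to 546, 553 and 499 CPM, and HSPA1B and HSPA1A, near-identical neighbours among which reads can be split, by 2.6-fold and 2.49-fold. Of the 31 proteasome subunits, none was called in either direction.

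Of 82 cytosolic ribosomal protein genes, 24 fell and none rose (29.3%, median -0.52), and 33 fell without replicate 3. RPL13A, often used as a reference gene for such cells, was among them, at 1559, 1746 and 1786 CPM in vehicle and 1084, 1056 and 1152 CPM with 32-134D (log2 fold change -0.63 ± 0.10, FDR 7.76e-05). The median exon length of the list was 3056 bases. With the length trend removed 3 of the 82 were called lowered, and RPL13A was not, at -0.39. Ribosomal protein genes have many processed copies in the genome, so their counts are uncertain. Of 30 genes of ribosome assembly, RRN3 fell (3.33%) and POLR1A and UTP20 rose (6.67%), under the 13.7% and 16.2% of all genes.

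Genes of lipid synthesis and storage moved in both directions. Of 20 genes of fatty acid and triglyceride synthesis, 7 rose and 2 fell. Fatty acid synthase (FASN) rose by 4.44-fold, from 242, 216 and 217 CPM to 1058, 1060.3 and 879.6 CPM (log2 fold change 2.15 ± 0.10, FDR 1.54e-09), and acetyl-CoA carboxylase (ACACA) by 4.61-fold, from 29.2, 27.1 and 25.1 CPM to 127, 119 and 129.8 CPM. GPAM, which starts triglyceride synthesis, was at 0.954, 0.613 and 0.691 CPM in vehicle and 35.3, 36.0 and 9.70 CPM with 32-134D. The regulators SREBF1 and MLXIPL rose as well, SREBF1 from 65.2, 62.5 and 69.4 CPM to 147, 146 and 148 CPM. LPIN1 and ACSL1, which channel fatty acids into lipids, fell. The levels in vehicle at 20% O2 were 1364 CPM for FASN, 144 CPM for ACACA and 41.9 CPM for GPAM.

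Of 11 lipid droplet genes, 5 fell and 4 rose, and 3 fell and 4 rose with the length trend removed. PLIN2, the main droplet coat protein of most cells, fell by 5.41-fold, from 3012, 3094 and 3313 CPM to 615, 606 and 519.7 CPM, and HILPDA and G0S2, both inhibitors of the lipase that empties droplets, fell by 2.76-fold and 3.27-fold. PLIN4, PLIN5 and the lipid enzyme PNPLA3 rose, PNPLA3 from 8.16, 9.43 and 9.47 CPM to 27.7, 29.8 and 16.1 CPM. Of 19 genes of fatty acid oxidation and ketone synthesis, 3 rose (15.8%, near the 16.2% of all genes), SLC25A20 and BDH1 among them. The coactivator PPARGC1A fell (5.26%, against 13.7% of all genes).

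Of 23 genes of cholesterol synthesis, 4 fell (2 with the length trend removed) and 3 rose, with a median of -0.02. MSMO1, CYP51A1 and the feedback protein INSIG1 fell, and LSS and HMGCS1 were among the 3 that rose. LSS, which closes the sterol ring, had 31.4, 31.2 and 30.7 CPM in vehicle and 115, 110.2 and 55.7 CPM with 32-134D. Replicate 3 was the lowest of its group for each of these 5 genes, and it lay within the vehicle range for HMGCS1, at 170.5, 173 and 82.4 CPM against 80.5, 88.3 and 87.5 CPM. Over the list, the median log2 change against vehicle was 0.15 and 0.09 in replicates 1 and 2 and -0.61 in replicate 3.

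Among genes of liver identity, the clearest changes were in APOB and PROX1. Apolipoprotein B (APOB), the scaffold of very low density lipoprotein, rose by 8.68-fold, from 423, 377 and 416 CPM to 3884, 3968 and 2707 CPM (log2 fold change 3.12 ± 0.17, FDR 5.98e-09). PROX1, a transcription factor of the early liver, rose by 8.49-fold, from 31.4, 34.5 and 32.4 CPM to 277, 287 and 269.5 CPM (log2 fold change 3.09 ± 0.10, FDR 6.14e-11). The groups did not overlap, and vehicle at 20% O2 was at 3256, 4948 and 5256 CPM for APOB and 260.4, 319 and 353 CPM for PROX1. Of 13 liver transcription factors, 4 rose and 3 fell. FOXA2, FOXA3 and NR5A2 fell, FOXA2 from 166, 195 and 196 CPM to 93.1, 95.4 and 74.4 CPM, and ONECUT2 rose from 53.4, 53.6 and 50.6 CPM to 90.7, 90.4 and 125 CPM. HNF4A, the central hepatocyte factor, was not called, at 357, 357 and 346 CPM and 349, 353 and 379.9 CPM. CEBPA, another hepatocyte factor, was called raised, at 364, 347 and 111 CPM against 147, 153 and 149 CPM, although replicate 3 lay below all vehicle libraries.

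Of 30 genes of plasma proteins, 6 fell (20.0%) and 4 rose (13.3%) with all libraries, against 13.7% and 16.2% of all genes. Without replicate 3, 3 fell and 9 rose. With the length trend removed 4 fell and 7 rose. Complement C3 rose from 392, 531 and 549 CPM to 1284, 1293 and 693 CPM and ITIH2 from 157, 198 and 199 CPM to 510.2, 499 and 203 CPM. The apolipoproteins APOC3 and APOA4 fell, APOC3 from 24.6, 32.4 and 35.4 CPM to 13.2, 11.7 and 7.41 CPM. The fibrinogen chain FGB was called lowered, at 33.5, 33.1 and 6.86 CPM against 47.4, 48.1 and 51.0 CPM, and its log2 fold change was -0.98 ± 0.35 with replicate 3 and -0.55, under the fold threshold, without it. Of 14 genes of the urea cycle and amino acid breakdown, 5 rose and 1 fell. NAGS, which makes the activator of the urea cycle, fell from 13.1, 12.9 and 15.1 CPM to 4.48, 4.88 and 4.80 CPM. TDO2, the first enzyme of tryptophan breakdown, had 1, 3 and 1 counts in vehicle and 91, 96 and 30 counts with 32-134D, a ratio of 43.9 (95% interval from counts 18.5 to 137).

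AhR target genes differed among themselves. The xenobiotic-metabolizing enzyme CYP1A1 was at 1.64, 1.79 and 1.07 CPM in vehicle and 104, 128 and 1086 CPM with 32-134D, against 6.45, 6.75 and 6.69 CPM in vehicle at 20% O2. Its log2 fold change was 8.19 ± 0.90 (FDR 3.38e-06), and 6.28 without replicate 3. The repressor of the receptor, AHRR, was at 2.54, 2.40 and 2.35 CPM and 4.94, 5.76 and 52.4 CPM, and CYP1B1 at 4.32, 3.35 and 2.97 CPM and 6.10, 7.27 and 38.5 CPM. The name AHRR stands for 2 Ensembl genes, and the values are those of the one with more counts (ENSG00000286169), the other (ENSG00000063438) being called raised too. All 3 genes passed both thresholds without replicate 3, with log2 fold changes of 1.13 for AHRR and 0.89 for CYP1B1. TIPARP, another target, was not called, at 140.2, 143 and 140.4 CPM and 97.9, 109 and 245 CPM, and its log2 fold change was 0.09 ± 0.24 with all libraries and -0.45 without replicate 3. The receptor AHR was not called, at 123, 123 and 116 CPM and 127, 127 and 118 CPM. Of the 11 genes of the list, 4 rose and 2 fell. Counts of UGT1A6, which fell, and of UGT1A1 share 3′ exons across the UGT1A locus and are uncertain.

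Of 22 other genes of drug metabolism, 9 rose and none fell (40.9%, against 16.2% of all genes), with a median of 1.24, and 13 rose without replicate 3. The bile acid receptor NR1H4 had 12.8, 11.3 and 2.24 CPM against 2.81, 2.69 and 3.80 CPM, and the sulfotransferase SULT2A1 had 10.1, 10.1 and 1.01 CPM against 1.88, 1.79 and 2.25 CPM. In both, replicates 1 and 2 were several times above vehicle and replicate 3 was at or below it.

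Cell cycle genes were called in both directions. Over all genes tested 13.7% were lowered and 16.2% raised, and most lists here lay not far from those shares. Of 14 D cyclins and CDK inhibitors, 3 fell (21.4%) and 2 rose (14.3%). Cyclin D1 (CCND1) rose by 2.56-fold, from 34.2, 32.5 and 31.9 CPM to 90.0, 91.3 and 71.3 CPM, and its partner CDK6 rose from 28.0, 24.6 and 22.4 CPM to 86.3, 90.8 and 297 CPM. The inhibitors CDKN1B and CDKN2D fell, CDKN1B from 140.5, 143 and 144 CPM to 76.0, 76.7 and 68.3 CPM, as did cyclin G2 (CCNG2). Of 31 genes of DNA replication, 7 fell (22.6%) and 2 rose (6.45%). CDT1, which loads the replicative helicase, fell from 217, 243 and 231 CPM to 114, 116 and 106 CPM, and thymidine kinase (TK1) and GINS3 fell, while the polymerases POLE and POLA1 rose. Of 25 mitotic genes, 5 fell and 3 rose, with 3 lowered without replicate 3 and 1 lowered after the length trend was removed. CDK1 fell from 151, 146 and 151 CPM to 83.6, 80.0 and 72.9 CPM, and the long genes CENPE, CENPF and MKI67 rose. Of 22 DNA repair genes, 4 fell (18.2%) and 4 rose (18.2%), and 1 rose with the length trend removed. The exonuclease EXO1 fell from 121, 114 and 107 CPM to 47.3, 45.2 and 44.4 CPM, and the damage kinases ATM and ATR rose, with log2 fold changes of 0.41 and 0.41, under the threshold, once the length trend was removed.

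Of 15 genes of the BCL2 family, 7 fell and 2 rose, and 3 fell and 3 rose with the length trend removed. Besides BNIP3 and BNIP3L, the cell death promoters BAD and HRK fell, BAD from 56.7, 63.2 and 63.4 CPM to 38.5, 39.9 and 29.1 CPM, and BMF and BIK rose. HRK was at 2.30, 2.32 and 5.17 CPM against 7.18, 6.36 and 5.15 CPM, with replicate 3 within the vehicle range. BMF had 282, 282 and 591 CPM against 184, 184 and 190.1 CPM.

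Of 17 histone demethylases and related enzymes, 3 fell and 1 rose, and the 17.6% that fell is near the 13.7% of all genes. KDM3A, a HIF target that removes histone methyl groups, fell from 751, 809 and 828 CPM to 229, 223 and 194 CPM, JMJD6 from 221, 249.5 and 215 CPM to 90.8, 87.3 and 81.4 CPM and KDM4B from 226, 228 and 244 CPM to 106, 111 and 102 CPM, while KDM8 rose. Of 11 collagen-modifying enzymes, 6 fell (54.5%) and none rose. The prolyl hydroxylases P4HA1 and P4HA2 fell by 7.22-fold and 3.84-fold, P4HA1 from 312, 357 and 372 CPM to 50.6, 53.8 and 39.6 CPM, and lysyl oxidase (LOX), which crosslinks collagen, fell from 41.2, 45.7 and 49.4 CPM to 12.3, 11.7 and 4.34 CPM.

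Cytokine and chemokine genes rose more often than they fell. Of 16 cytokine and chemokine genes tested, 10 rose (62.5%, against 16.2% of all genes) and 2 fell, with a median of 1.07. The neutrophil attractants CXCL1 and CXCL5 rose, CXCL1 from 0.398, 0.283 and 0.415 CPM to 12.8, 13.5 and 5.30 CPM and CXCL5 from 3.63, 3.30 and 5.15 CPM to 24.4, 25.7 and 12.4 CPM, and CCL20, which attracts lymphocytes, rose from 6.02, 8.63 and 8.23 CPM to 21.2, 20.1 and 11.5 CPM. These were low levels, highest in replicates 1 and 2, and the means in vehicle at 20% O2 were, in the same order, 19.1, 30.6 and 23.2 CPM. The inflammatory factor MIF fell from 360.1, 431 and 446 CPM to 187, 193 and 169 CPM, and IL18 from 12.5, 12.4 and 12.1 CPM to 5.98, 6.36 and 3.75 CPM.

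Of 9 genes of immune evasion, 1 rose, 1 fell and 7 were not called. The share of 11.1% in each direction is under the 13.7% lowered and 16.2% raised of all genes. NT5E (CD73), which makes adenosine, rose by 3.89-fold, from 7.18, 10.0 and 9.20 CPM to 37.9, 34.7 and 29.1 CPM. CD274 (PD-L1) fell from 1.40, 1.08 and 1.14 CPM to 0.652, 0.774 and 0.412 CPM, which are low levels. Of 19 genes of antigen presentation and natural killer cell recognition, 6 fell (31.6%) and none rose. The peptide transporter TAP1 fell from 26.7, 26.9 and 23.8 CPM to 12.3, 10.9 and 8.41 CPM, and the stress ligands MICB and ULBP1 fell, ULBP1 from 19.7, 18.7 and 18.9 CPM to 5.90, 4.68 and 7.18 CPM. Of 18 interferon-stimulated genes, 4 rose (22.2%) and 3 fell (16.7%), not far from the shares of all genes. STAT2, which carries the interferon signal, rose from 21.2, 16.6 and 17.9 CPM to 43.8, 47.1 and 45.2 CPM, and IRF1, IRF7 and IFIT2 fell.

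Immediate early genes, which answer growth factor and stress signals within minutes, also split. Of 15, 6 fell and 4 rose, and 7 fell and 2 rose without replicate 3. JUN fell from 719, 910.0 and 831 CPM to 251, 282 and 260.2 CPM, FOSL2 from 126, 133 and 132 CPM to 28.9, 30.6 and 28.2 CPM and KLF4 from 18.2, 20.3 and 17.2 CPM to 5.05, 4.85 and 5.40 CPM. EGR1 rose, with 21.6, 22.8 and 103 CPM against 8.99, 6.88 and 6.6 CPM, as did IER3, with 89.0, 88.2 and 199 CPM against 40.9, 45.4 and 47.6 CPM. MYC was not called, at 125, 132 and 196 CPM against 203, 192 and 195 CPM.

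Among antioxidant and metal genes, more fell than rose, and most were not called. Of 18 genes of the NRF2 pathway, 6 fell and 2 rose, and 8 fell and none rose without replicate 3. GCLC, which makes glutathione, fell from 205, 171 and 168 CPM to 88.7, 85.9 and 91.8 CPM, and OSGIN1, heme oxygenase 1 (HMOX1) and the NRF2 inhibitor KEAP1 fell by 2.15-fold, 1.9-fold and 1.67-fold. Of 13 iron genes, 5 fell and 1 rose, and 2 rose without replicate 3. Ferritin light chain (FTL) fell from 3980.2, 4300.1 and 4025 CPM to 2552, 2490.3 and 2078 CPM, and the iron reductase STEAP3 rose from 7.69, 6.79 and 8.33 CPM to 22.9, 23.0 and 29.4 CPM. Of 9 metallothioneins, whose sequences are alike, 2 fell, and 5 fell without replicate 3.

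The library of replicate 3 differed from replicates 1 and 2 of 32-134D in named sets of genes. Among the 11454 genes whose normalized count averaged 100 or more, replicate 3 was over 2-fold above both others for 91 genes and over 2-fold below both for 169. No gene met either condition for replicate 1 or 2, and at most 1 gene did so for any of the vehicle libraries at 1% O2. These genes were selected by that difference, so their values are a description. Its 21044373 counts were the fewest of the 6 libraries, the next being a vehicle library with 23550989, and with the 6 libraries thinned to that total replicate 3 was over 2-fold above for 99 genes and below for 163.

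**Figure D4:**
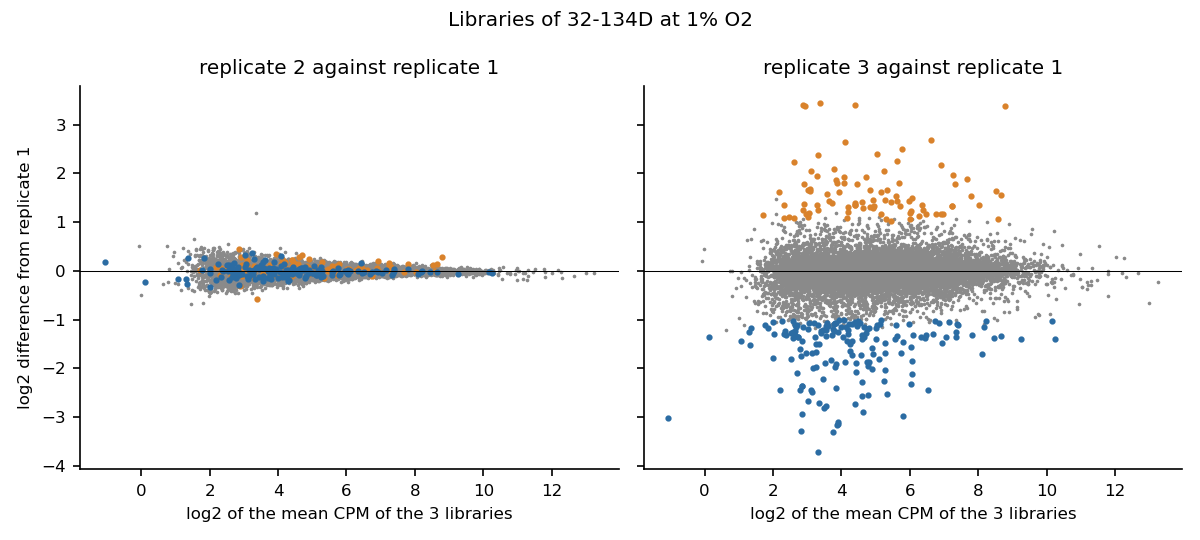
Levels of 11454 genes in replicate 2 (left) and replicate 3 (right) of 32-134D, as log2 differences from replicate 1 (1 added to each normalized count), against the mean log2 CPM of the 3 libraries. Replicate 2 lies within a narrow band about 0, and replicate 3 spreads widely, with its 91 genes over 2-fold above both others in orange and its 169 genes over 2-fold below both in blue.

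Among the genes high in replicate 3, the 5 protein-coding genes furthest above were CEMIP, COLEC12, CYP1A1, UGT1A1 and ITGA2, with AHRR, 9.80-fold above, left out because GENCODE version 29 gives that gene no class. The hyaluronan-binding protein CEMIP was at 2.47, 1.65 and 27.1 CPM, the scavenger receptor COLEC12 at 1.82, 1.68 and 19.4 CPM and the integrin ITGA2 at 34.7, 35.3 and 223 CPM, against at most 1.24, 0.990 and 22.1 CPM in vehicle. CYP1A1, UGT1A1 and CYP1B1 were 9.37-fold, 9.07-fold and 5.76-fold higher there than the average of the other 2, and 4 of the 8 well counted genes of the AhR list, CYP1A1, CYP1B1, AHRR and TIPARP, were in the set. Of the next genes, named after their values were seen, the protease PLAU was 5.24-fold above, the growth factor signal inhibitor SPRY4 5.20-fold, the exchange factor SOS1 4.17-fold, the cell cycle inhibitor CDKN2B 4.17-fold, and the cystine transporter SLC7A11 3.35-fold. EGR1, JUNB and IER3 of the immediate early list and AREG and EREG, ligands of the epidermal growth factor receptor, were in the set too. Of the 91 genes, 52 were called raised, 6 lowered and 33 neither.

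The genes low in replicate 3 included hepatocyte genes. Carbamoyl phosphate synthetase (CPS1), the first enzyme of the urea cycle, was at 14.2, 14.4 and 1.05 CPM with 32-134D and 1.43, 1.51 and 2.59 CPM in vehicle. The glucose transporter of hepatocytes SLC2A2 was at 21.0, 21.0 and 2.33 CPM and 1.25, 1.08 and 1.21 CPM, and the ubiquitin ligase TRIM50 at 21.0, 20.7 and 2.33 CPM and 3.34, 2.50 and 2.87 CPM. In these 3 genes replicates 1 and 2 were near the vehicle level at 20% O2, which was 16.8, 25.2 and 27.8 CPM, and replicate 3 was near that at 1% O2. SULT2A1 and LGI4, the other genes of the 5 protein-coding genes furthest below, were 10.0-fold and 15.2-fold under the mean of replicates 1 and 2. LGI4 was near the floor with 32-134D, at 0.652, 0.741 and 0.0457 CPM, so its gap rests on very few counts. Its counts lay almost wholly in the vehicle libraries, at 17.7, 19.9 and 20.2 CPM. Of 24 well counted plasma protein genes, 9 were in the set, the fibrinogen chains FGA, FGB and FGG, AFP, AHSG, HPX, KNG1, ITIH2 and TF, as were the liver transcription factors CEBPA and ONECUT1. Transferrin (TF) was at 1545, 1505 and 584 CPM against 1801, 2224 and 2288 CPM, and the prolactin receptor PRLR, named after its values were seen, at 34.2, 35.1 and 4.57 CPM against 1.64, 1.13 and 1.62 CPM. Of the 169 genes, 85 were called raised, 22 lowered and 62 neither.

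The position of replicate 3 against vehicle differed between genes. Of the 169 genes it was low in, replicates 1 and 2 were above every vehicle library at 1% O2 for 127. For 47 of these replicate 3 was above vehicle as well, for 19 it lay within the vehicle range, and for 61 it lay below all vehicle libraries. Of the 91 genes it was high in, replicates 1 and 2 were above vehicle for 48, where replicate 3 was further above in all, and below vehicle for 31, where replicate 3 was above every vehicle library in 25. For genes such as HAL, which breaks down histidine, the group mean hides this, with 30.1, 28.9 and 4.53 CPM against 31.1, 33.4 and 35.7 CPM and no call.

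Known HIF targets and other strong decreases were close in the 3 libraries. For CA9, VEGFA, LDHA, SLC2A1, BNIP3, P4HA1, EGLN1, PLIN2, KDM3A and EPO, replicate 3 was between 0.759 and 0.988 times the mean of replicates 1 and 2. In the median of the glycolysis list the 3 replicates were at -1.64, -1.65 and -1.75 (log2 change against vehicle), and no member but PKLR was over 2-fold apart. The medians of the plasma protein list were 0.06, -0.07 and -0.70, and those of the drug metabolism list 1.21, 1.12 and 0.15. A pair of lists written after the values of replicate 3 were seen is given as description only. In 19 further hepatocyte enzymes, transporters and receptors, 13 of which were called raised, the medians were 1.29, 1.14 and 0.34. In 13 feedback genes of MAP kinase signalling they were 0.22, 0.29 and 0.58. The labels give no culture date, well or extraction for replicate 3, so what set it apart was not tested.

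**Figure D5:**
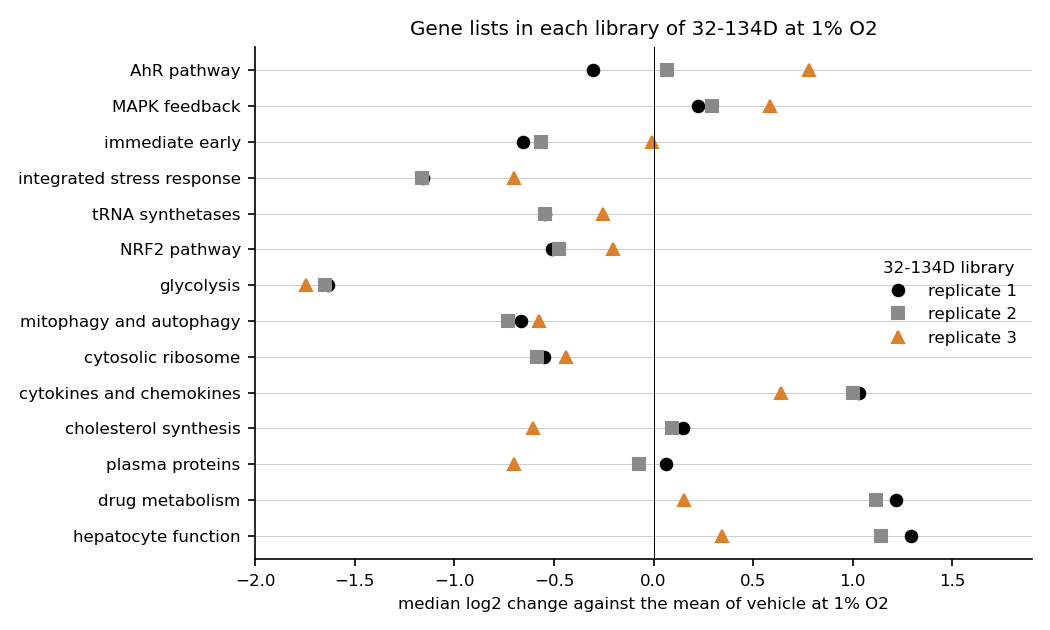
Median log2 change against the mean of vehicle at 1% O2 in each 32-134D library (points: replicates 1, 2 and 3) for 14 gene lists. Replicates 1 and 2 lie close together in every list but the AhR pathway, where they are at -0.30 and 0.07. Replicate 3 lies above them for the AhR pathway, integrated stress response, immediate early, MAPK feedback, tRNA synthetase and NRF2 pathway lists. It lies below them for the drug metabolism, plasma protein, hepatocyte function, cholesterol synthesis, and cytokine and chemokine lists. In the glycolysis, mitophagy and autophagy, and cytosolic ribosome lists it lies nearer to them.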

How the data were processed

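Hep3B cells were treated for 24 hours, and libraries from their total RNA were sequenced on a NovaSeq6000. The authors deposited raw counts for each Ensembl gene in the 9 libraries. Per the study's methods, reads were checked with FastQC, trimmed with Bbduk, mapped with STAR (GRCh38, Ensembl release 100) and counted with featureCounts, and the deposited table is named as raw counts from before quality control. Tool versions, the strand setting and the library kit are not given in the sources used here, so reads of a gene and of an antisense gene over it cannot be told apart. Column names matched the sample titles, and 0 columns were left without a sample.

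Genes with a count sum of at least 10 over the 9 libraries, 22672 in all, were tested with edgeR 4.0.16 (quasi-likelihood test, TMM scaling) in R 4.3.3, in 1 fit of the 9 libraries. A gene was called at a Benjamini-Hochberg FDR under 0.05 and a fold change above 1.5, thresholds that follow the study's methods. The SE of a log2 fold change was its size over the square root of the F statistic. The common biological coefficient of variation was 10.5%. Classes, exon lengths and positions came from GENCODE version 29, which held 22265 of these genes. In counts simulated for 22092 genes with 200 changed by 2-fold, 88% were recovered and 8.81% of the calls were false. The alternatives were DESeq2 1.42.0, other scalings, filters and thresholds, a fit of 6 libraries, thinning, the replicate number as a block, each library left out in turn and, chosen after seeing the data, removal of a smooth trend over exon length.

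The members and the 42 gene lists were chosen with earlier results of these data known, and 2 further lists after the values of replicate 3 were seen. The genes named are those the study discusses, the 8 largest decreases and the 8 largest increases among called protein-coding genes that reach 100 normalized counts on average in the higher group without overlap, up to 3 called members of a list in each direction from 50 normalized counts, regulators that head a list, and the 5 protein-coding genes with the widest gaps above and below in replicate 3. Some genes that this covers are not reported here. Others are marked, or are members of a set whose count is given. A normalized count is CPM times the mean scaled library size. The labels call the replicates biological, in wells of 6-well plates, and nothing more is stated on their separation, so p-values measure the spread between these samples. No 2 libraries were duplicates: chi-square per degree of freedom was 2.08 to 40.5 between libraries of the same group at 1% O2. Intervals on ratios of counts cover counting error only.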

Additional observations from a re-analysis of the deposited data

How the results depend on the processing

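The 3100 lowered and 3675 raised genes became 2425 and 3582 with DESeq2, 2649 and 3966 with RLE scaling, 1847 and 4755 with total library size scaling, and 2338 and 3963 with the exon length trend removed. They were 1188 and 2451 with a fold change above 2, and 5788 and 4973 with no fold change threshold. Other filters on low counts gave 2161 to 3188 lowered and 2772 to 3681 raised genes, a fit of the 6 libraries gave 2623 and 3799, and thinning gave 2627 and 3644. Leaving out each library in turn gave 2453 to 3144 lowered and 3311 to 3711 raised genes. With a replicate block the counts were 3012 and 3474. Deviations of same-numbered libraries had correlations of -0.0322 to 0.00525. These took in every gene tested, down to a count sum of 10, where counting noise can hide a link. They cannot exclude a shared culture day or plate.

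The 91 genes with replicate 3 of 32-134D above the other 2 became 314 with a gap of 1.5-fold and 229 when 10 normalized counts were enough, and the 169 below them became 524 and 477. Total library size scaling and thinning gave 92 and 99 above, and 166 and 163 below.

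Of 205 named genes, 186 were called, and 0 of these changed direction in the alternatives run. Of the 19 not called, 8 did. HIF1A was at -0.0071 with no filter, and at -0.019 to 0.055 with a library left out. EPAS1 was at 0.11 under total library size scaling, at 0.0012 when every library needed 10 counts, and at -0.13 to 0.014 with a library left out. AHR was at -0.011 with the length trend removed. Leaving out a library gave -0.0095 to 0.11 for HNF4A, -0.30 to 1.11 for CDKN2B, -0.49 to 0.39 for EREG, -0.66 to 0.53 for SLC7A11 and -0.45 to 0.38 for TIPARP, with the lowest value in each without replicate 3 of 32-134D. With the block SLC7A11 was at -0.011 and TIPARP at -0.0033. Without that replicate 11 called genes were no longer past both thresholds, SLC9A3R1, PFKM, VARS1, CXCL12, TF, FGA, FGB, AREG, JUNB, PLAU and SOS1. With the length trend removed 17 were not, among them ATM, ATR, MKI67, POLE, POLR1A, ONECUT2, KEAP1, XBP1, BAD and RPL13A. The cause was not tested. Precision is limited by 3 libraries a group and, in genes with few reads, by depth.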

Other observations

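Long intergenic, antisense and sense intronic RNA genes, which the account above leaves out, were raised more often than lowered by 32-134D. Of 1541 long intergenic RNA genes tested, 326 were raised (21.2%, against 16.2% of all genes tested) and 86 lowered, with a median log2 fold change of 0.44. Of 2190 antisense genes 277 were raised, a share of 12.6% that is below that of all genes, and 147 lowered, and of 391 genes inside introns on the sense strand 91 were raised (23.3%) and 14 lowered. The medians were 0.10 and 0.83, against -0.09 for protein-coding genes. The following genes were chosen after their values were seen. MIR210HG, the host gene of the hypoxia-induced microRNA miR-210, fell from 6.81, 7.59 and 8.71 CPM in vehicle to 3.49, 3.27 and 1.97 CPM with 32-134D, and DARS-AS1, an antisense RNA, from 11, 11.2 and 9.20 CPM to 2.04, 1.75 and 1.42 CPM. KCNQ1OT1, an imprinted antisense RNA, rose from 8.88, 8.67 and 8.82 CPM to 33.3, 37.5 and 19.8 CPM, with a log2 fold change of 1.78 ± 0.18 that was 0.53, no longer called, with the exon length trend removed. LINC00342 rose from 0.371, 0.283 and 0.311 CPM to 4.82, 4.58 and 4.07 CPM. The libraries of the groups did not overlap for these 4 genes. The strand setting of the counting is not given in the sources used here, so reads of a sense gene may be among those of an antisense or intronic one.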
